A study of Mus musculus with 6 samples.

Results

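The genes described here are 36 named genes of fatty acid oxidation and lipid storage, taken from a list of PPAR factors, oxidation enzymes and lipid droplet genes. All 36 were found among the 46983 gene identifiers of the counts table, and 35 passed the filter on low counts that 16115 genes passed. The exception was Ppara. By role, 18 members act in oxidation, 9 in storage and uptake, 4 are PPAR factors, 3 are acyl-CoA thioesterases and 2 set the fuel use of mitochondria.

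RNA was sequenced from untreated bone marrow derived macrophages of C57BL/6 mice, 3 libraries from wild-type (WT) animals and 3 from AEG-1 knockout (AEG-1 KO) animals. Femoral marrow had been grown for 7 days in medium with 20% L929 conditioned medium, a source of macrophage growth factor, and 10% heat-inactivated serum. The gene that encodes AEG-1 is Mtdh. The labels describe neither the knockout allele nor whether libraries of a genotype came from different mice, so a p-value here covers the spread between libraries, which may be technical.

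Fatty acids that enter a macrophage are joined to coenzyme A and then either burned or stored. For oxidation, the carnitine shuttle carries them into mitochondria, where a 4-step cycle shortens the chain and passes electrons to the respiratory chain through the electron transfer flavoprotein. For storage they are built into triglyceride and cholesteryl ester inside lipid droplets, which are coated by perilipins and emptied by lipases. PPAR proteins are nuclear receptors that bind fatty acids and, paired with RXR, switch on genes of both routes.

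Total counts were 42548170 to 58947230 per library, so that 1 CPM, the TMM-scaled unit of expression used here, stood for 42.6 to 58.5 reads. Mtdh was at 262 ± 9.97 CPM (SD, n = 3) in WT and at 0.395 ± 0.106 CPM in AEG-1 KO, so all 6 libraries matched their labelled genotype. All 8 macrophage markers were tested, and 3 were called higher and 1 lower in AEG-1 KO. That is 50%, where 6.35% of all tested genes were called. Groups did not overlap in 75% of these markers, against 26.8% of all tested genes. The list stood at a summed 17670 to 18150 CPM in WT against 18160 to 18840 CPM in AEG-1 KO. Of 9 monocyte markers 5 were called higher in AEG-1 KO, where 3.31% of all tested genes were, and 2 uncalled markers had all AEG-1 KO values below the WT values. The monocyte list summed to 183 to 203 CPM in WT against 227 to 243 CPM in AEG-1 KO. Of 12 neutrophil markers 10 were tested and 6 called higher, with sums of 392 to 402 and 462 to 505 CPM. Of 10 stromal markers 7 were tested and 3 called higher, with sums of 6.38 to 8.001 and 10.6 to 12.2 CPM. No monocyte, neutrophil or stromal marker was at 0 in every library, and the part of these cells in the results below was not tested. None of 9 adipocyte markers passed the filter, Lep had 0 reads in all 6 libraries, and the list summed to 0.274 to 0.381 CPM in WT against 0.355 to 0.402 CPM in AEG-1 KO. Of 7 endothelial markers 3 were tested and 0 were called by edgeR, though 2 had an unadjusted p under 0.05. All 3 had positive log2 fold changes, with a median of 0.28, and the list summed to 11.4 to 12.5 CPM in WT against 13.5 to 15.6 CPM in AEG-1 KO, without overlap; their part in the results was not tested either.

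None of the 18 oxidation members was called different between the genotypes, and the called members were 2 storage genes and 2 thioesterases. In AEG-1 KO the droplet coat gene Plin2 rose 17.5%, Angptl4, a secreted inhibitor of lipoprotein lipase, rose 43.5% and the thioesterase gene Acot1 rose 69.5%, while the thioesterase gene Acot7 fell 24.6%. These 4 were called at an adjusted p under 0.05, 11.4% of the 35 tested members, where 6.35% of all tested genes were called. Of the 18 oxidation genes 0 were called (edgeR quasi-likelihood test), also by DESeq2 and limma-voom, and 1, Etfdh, had an unadjusted p under 0.05. Of the 9 storage genes 2 were called, both higher, where 3.31% of all tested genes were called higher. The storage list also holds lipases that empty droplets and the inhibitor gene Angptl4, so its values do not measure storage itself. The median log2 fold change was 0.01 over the oxidation genes, 0.13 over the storage genes and 0.01 over all genes tested, and the difference between the 2 lists was not tested. Groups did not overlap in 9 of the 35 members (25.7%; 26.8% of all tested genes), 7 of them higher (13.9% of all genes) and 2 lower in AEG-1 KO (12.9% of all genes), a share near the background. In RNA of a whole culture, fewer cells of a type and less RNA per cell cannot be told apart. Without AEG-1 KO replicate 2, 1 member was called, Acot7.

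**Figure D1:**
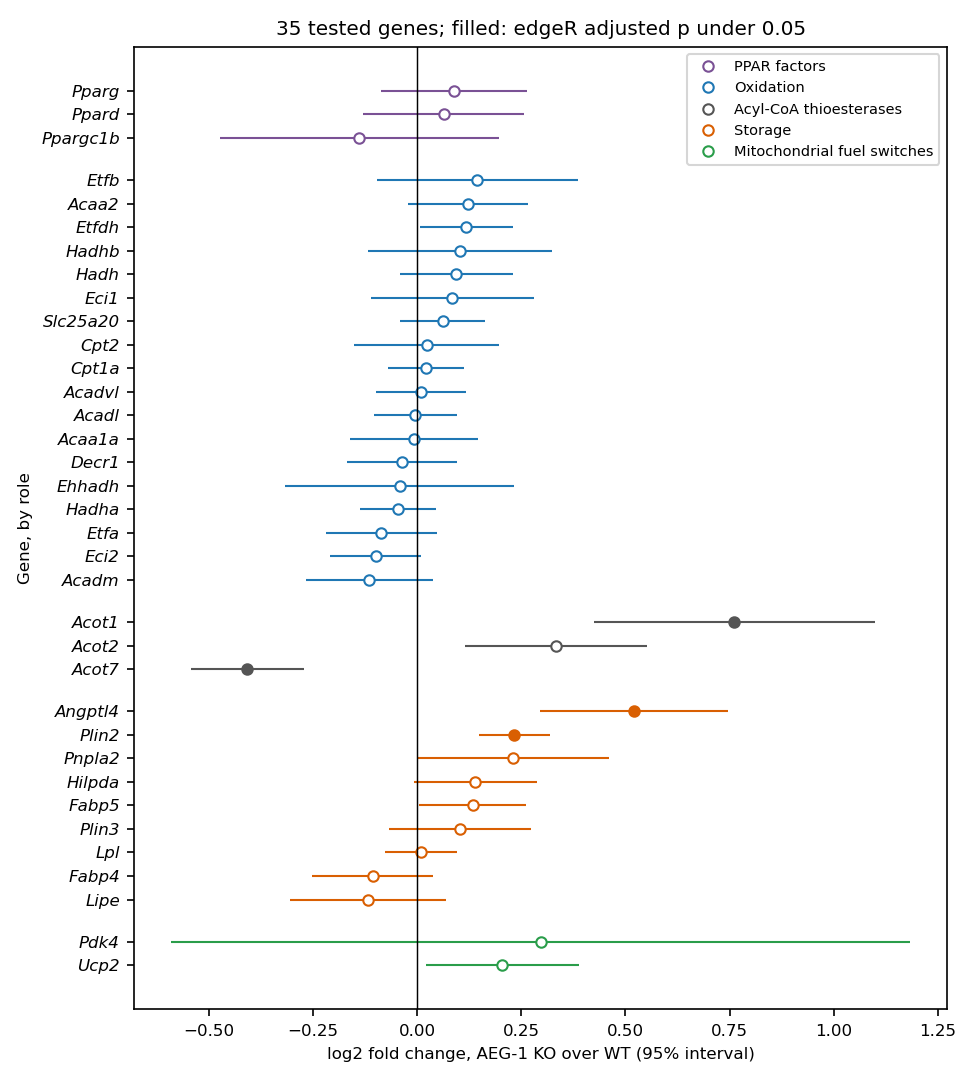
Change on the log2 scale of the 35 tested genes, as AEG-1 KO relative to WT, with its 95% interval, grouped and coloured by role; filled points have an edgeR adjusted p under 0.05. The 18 oxidation genes lie between -0.12 and 0.14, while Acot1, Angptl4 and Plin2 lie to the right of 0 and Acot7 to the left.

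The PPAR factors did not pass the test, and they stood at unequal levels. Ppara, the PPAR that drives oxidation genes in liver, had 1 read in WT replicate 2 and 0 reads in each of the other 5 libraries. Ppard, the broadly expressed PPAR, was at 38.9, 37.7 and 31.4 CPM in WT replicates 1 to 3 and at 36.4, 35.95 and 40.7 CPM in AEG-1 KO replicates 1 to 3. The groups overlapped, with the lowest and the highest values in the 2 replicates numbered 3 (log2 fold change 0.06, SE 0.09, adjusted p = 0.729 by edgeR). Pparg, the PPAR of fat cells and of lipid handling in macrophages, was at 8.26, 8.05 and 8.12 CPM in WT and at 9.32, 8.17 and 8.46 CPM in AEG-1 KO. The groups overlapped here too (log2 fold change 0.09, SE 0.08, adjusted p = 0.569 by edgeR). Ppargc1b, a coactivator of mitochondrial gene expression, was at 1.88, 1.91 and 1.48 CPM in WT and at 1.53, 1.57 and 1.72 CPM in AEG-1 KO. Its groups overlapped as well (log2 fold change -0.14, SE 0.15, adjusted p = 0.65 by edgeR). Over the 3 tested factors the 95% intervals allowed changes from -28% to 20%. Per kilobase of exon, the WT level was 4.80 ± 0.535 RPKM for Ppard, 2.76 ± 0.036 RPKM for Pparg and 0.441 ± 0.0605 RPKM for Ppargc1b (RPKM is CPM per kilobase; SD, n = 3).

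The promoters of the members were read for the element that PPAR and RXR bind, a direct repeat of AGGTCA with any 1 base between. RefSeq promoters on GRCm38.p6, 250 bases before to 50 after a transcription start, were given for 29 of the 36 members, 33 promoters in all. None was given for Acaa2, Angptl4, Decr1, Fabp4, Fabp5, Lpl and Ppargc1b, so the called gene Angptl4 was not searched. On both strands, 0 of the 33 held the repeat exactly or with 1 mismatch, against 0.0396% and 0.554% of all 32851 promoters in the table. With so rare a match, 33 promoters are too few to tell the members from the rest. A single AGGTCA, which any repeat also holds, stood in 6 of the 33 (18.2%) and in 16.3% of all promoters. The 6 matches are printed because they fall in Plin2, which rose, and equally in Cpt1a, Acadvl, Acadm and Pparg, which were not called. Capitals mark the single AGGTCA or its reverse complement TGACCT. Each line runs 5′ to 3′ on the gene's strand and stops before the start, and the match describes letters, not binding.

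Plin2 (chr4:86670252-86670297, minus strand): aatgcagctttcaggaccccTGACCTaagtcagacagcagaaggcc
Cpt1a (chr19:3323187-3323232, plus strand): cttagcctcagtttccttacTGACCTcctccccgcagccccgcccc
Acadvl (chr11:70015490-70015535, minus strand): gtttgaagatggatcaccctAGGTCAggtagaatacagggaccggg
Acadm (chr3:153944867-153944893, minus strand): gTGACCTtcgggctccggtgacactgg
Pparg, first start (chr6:115361096-115361141, plus strand): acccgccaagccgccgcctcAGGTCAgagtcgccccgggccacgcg
Pparg, second start (chr6:115362320-115362348, plus strand): tttatataagggacgcgaggAGGTCAaga

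The single AGGTCA or TGACCT, which is not the repeat, begins 218 bases before the start in Plin2, 94 in Cpt1a, 87 in Acadvl and 249 in Acadm. At the 2 starts of Pparg the single AGGTCA begins 28 and 9 bases before. Among the 29 genes with a promoter to search, those that carry the single AGGTCA or TGACCT before the start include 1 that was called and 4 that were not.

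The genes of fatty acid entry into mitochondria were not called. Cpt1a, the regulated first step of the carnitine shuttle, was at 216, 219 and 212 CPM in WT replicates 1 to 3 and at 212, 219 and 225 CPM in AEG-1 KO replicates 1 to 3. The groups overlapped, and the 95% interval of the log2 fold change ran from -0.07 to 0.11 (adjusted p = 0.814 by edgeR). Slc25a20, which carries acylcarnitine across the inner membrane, was at 44.7, 46.6 and 45.9 CPM in WT and at 48.3, 46.7 and 48.2 CPM in AEG-1 KO. All 3 AEG-1 KO values lay above the WT values, AEG-1 KO replicate 2 only just, and the log2 fold change was 0.06 ± 0.05 SE (adjusted p = 0.492 by edgeR). Cpt2, which returns the acyl group to coenzyme A, was at 18.1 ± 1.83 and 18.5 ± 0.254 CPM (SD, n = 3; adjusted p = 0.906 by edgeR).

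Of the acyl-CoA dehydrogenases, which open each round of the cycle, the medium-chain enzyme gene Acadm differed most. Acadm was at 36.5, 43.3 and 40.9 CPM in WT and at 37.9, 35.6 and 37.9 CPM in AEG-1 KO, with WT replicate 1 among the AEG-1 KO values (log2 fold change -0.12, SE 0.07, adjusted p = 0.372 by edgeR). The long-chain enzyme gene Acadl, the most abundant oxidation gene per kilobase at 64.1 ± 2.48 RPKM in WT and 63.9 ± 0.985 RPKM in AEG-1 KO, had a 95% interval of -0.10 to 0.09 around a log2 fold change of -0.0046. The very-long-chain enzyme gene Acadvl was at 41.8 ± 1.46 and 42.0 ± 0.396 CPM (log2 fold change 0.01, SE 0.05).

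The next steps of the cycle are run by the trifunctional protein, whose subunits are encoded by Hadha and Hadhb, by the short-chain dehydrogenase Hadh and by the thiolase Acaa2. Hadha was at 126 ± 2.78 CPM in WT against 122 ± 1.81 CPM in AEG-1 KO, with a 95% interval of -0.14 to 0.04 for the log2 fold change. Acaa2 was at 23.4, 24.7 and 22.0 CPM in WT and at 24.3, 25.2 and 26.8 CPM in AEG-1 KO, overlapping groups with a log2 fold change of 0.12, SE 0.06 (adjusted p = 0.312 by edgeR). Hadh was at 35.03 ± 1.99 and 37.4 ± 1.68 CPM (adjusted p = 0.419 by edgeR).

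Hadhb was measured far below its partner subunit, at 1.11 ± 0.0704 RPKM in WT against 14.5 ± 0.319 RPKM for Hadha. The processed pseudogene Gm13910 shares stretches of up to 1428 bases with Hadhb, at up to 100% identity. Hadhb was counted at 303, 449 and 322 reads in WT and at 348, 374 and 318 reads in AEG-1 KO. In the same libraries Gm13910 had 1887, 2634 and 1986 reads, and 2037, 1874 and 1943 reads. More reads were thus listed under the pseudogene than under Hadhb in all 6 libraries. Which gene they came from cannot be told from the counts, and how the authors treated reads with several matches is not given in the sources used here. With the 2 rows added, the level was 51.7 CPM in WT against 52.1 CPM in AEG-1 KO (log2 fold change 0.01, SE 0.05, adjusted p = 0.94 by edgeR).

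Genes for unsaturated chains, for electron transfer and for peroxisomal oxidation were not called either. Eci2, an isomerase that shifts double bonds of unsaturated chains into place, was at 37.3, 38.5 and 39.3 CPM in WT and at 35.3, 35.4 and 36.6 CPM in AEG-1 KO. All 3 AEG-1 KO values were below the WT values, by a log2 fold change of -0.10, SE 0.05 (adjusted p = 0.269 by edgeR). The related isomerase gene Eci1 and the reductase gene Decr1 had log2 fold changes of 0.08 and -0.04. Etfdh, which hands electrons from the flavoprotein to ubiquinone, was at 38.3, 40.9 and 40.0 CPM in WT and at 43.5, 43.9 and 41.9 CPM in AEG-1 KO. Its AEG-1 KO values lay above the WT values (log2 fold change 0.12, SE 0.05, unadjusted p = 0.0393 and adjusted p = 0.204 by edgeR). The flavoprotein subunit genes Etfa and Etfb had log2 fold changes of -0.09 and 0.14, and Etfb, the largest difference of the 18, had overlapping groups of 10.4, 7.98 and 9.50 CPM in WT and 11.1, 10.0 and 9.57 CPM in AEG-1 KO (adjusted p = 0.488 by edgeR). In peroxisomes, Ehhadh was at 3.20, 4.07 and 4.09 CPM in WT and at 3.48, 3.66 and 3.93 CPM in AEG-1 KO, which overlap (adjusted p = 0.888 by edgeR). The peroxisomal thiolase gene Acaa1a was at 120 ± 10.6 and 120 ± 6.24 CPM (adjusted p = 0.968 by edgeR).

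Groups that did not overlap were found in 3 of the 18 oxidation genes (16.7%), Slc25a20 and Etfdh higher and Eci2 lower in AEG-1 KO, where the share over all tested genes was 26.8%. The 95% intervals of the 18 genes lay between log2 fold changes of -0.32 and 0.39, that is between a fall of 19.7% and a rise of 30.6%, with the widest limits in Ehhadh and Etfb. Summed over the 18 genes, the level was 972, 987 and 968 CPM in WT against 965, 978 and 988 CPM in AEG-1 KO. The summed values overlapped, at 976 ± 10.2 and 977 ± 11.8 CPM (SD, n = 3).

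**Figure D2:**
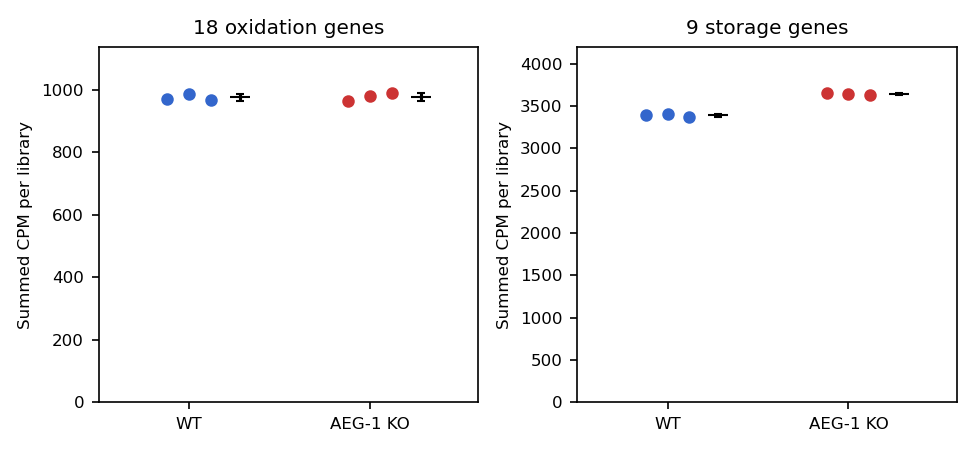
Summed TMM-normalized CPM of the 18 oxidation genes (left) and the 9 storage genes (right) in each library (coloured points), with mean and SD (black, n = 3); both axes start at 0. Oxidation sums overlap at 965 to 988 CPM, and storage sums are 3369 to 3399 CPM in WT against 3631 to 3648 CPM in AEG-1 KO.

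Lipid droplet coat genes included Plin2, the member that was most abundant per kilobase of merged exons. That rank depends on the exon length used, 3512 bases for Plin2 and 10478 for Lpl. In CPM, Lpl was above Plin2, at 1805 against 1157 in WT. Plin2 (ENSMUSG00000028494, GRCm38 chromosome 4, 86648386 to 86670060, minus strand) encodes perilipin 2, the main droplet coat protein of macrophages, and had a WT level of 330 ± 9.17 RPKM. It was at 1153, 1191 and 1127 CPM in WT replicates 1 to 3 and at 1359, 1355.5 and 1365 CPM in AEG-1 KO replicates 1 to 3. Every AEG-1 KO library was above every WT library, and the AEG-1 KO values were closely spaced. Plin2 rose by a log2 fold change of 0.23, SE 0.04 (adjusted p = 0.00755 by edgeR), and the call was lost without AEG-1 KO replicate 2 (adjusted p = 0.0526 by edgeR, log2 fold change 0.23). The pseudogene Gm12551 shares stretches of up to 259 bases with Plin2, at up to 96.1% identity. It went from 60.8 to 73.6 CPM (log2 fold change 0.27, adjusted p = 0.0106 by edgeR), and the 2 rows together had a log2 fold change of 0.23.

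The other droplet genes of this group did not pass. Hilpda, a droplet protein that inhibits the lipase ATGL, was at 15.4, 14.9 and 14.6 CPM in WT and at 15.7, 16.2 and 17.6 CPM in AEG-1 KO. All 3 AEG-1 KO values were above the WT values (log2 fold change 0.14, SE 0.07, adjusted p = 0.255 by edgeR). Plin3, a perilipin that moves between cytosol and droplets, was at 116, 106 and 95.7 CPM in WT and at 105, 115 and 121 CPM in AEG-1 KO, which overlap (adjusted p = 0.482 by edgeR).

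Droplet lipases had no call. Pnpla2 encodes ATGL, which takes the first fatty acid from triglyceride, and was at 54.7, 50.4 and 41.6 CPM in WT and at 51.6, 57.7 and 63.0 CPM in AEG-1 KO. The groups overlapped through WT replicate 1 and AEG-1 KO replicate 1 (log2 fold change 0.23, SE 0.10, adjusted p = 0.232 by edgeR). After each library was corrected for a smooth dependence on GC content and gene length, Pnpla2 was called higher (log2 fold change 0.23, adjusted p = 0.0178 by edgeR). At 57.6% GC its transcripts lay at the 90.8th percentile of tested genes. Lipe, the hormone-sensitive lipase, was at 22.2, 20.0 and 18.2 CPM in WT and at 17.4, 18.7 and 19.6 CPM in AEG-1 KO, overlapping groups with a log2 fold change of -0.12, SE 0.08 (adjusted p = 0.466 by edgeR).

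Among the genes of fatty acid release from lipoproteins and of fatty acid binding, Angptl4 was called and the enzyme it inhibits was not. Angptl4 (ENSMUSG00000002289, GRCm38 chromosome 17, 33773750 to 33781830, minus strand) was at 8.21, 9.14 and 7.91 CPM in WT and at 10.8, 12.05 and 13.6 CPM in AEG-1 KO. The groups did not overlap, and the AEG-1 KO libraries were more widely spread (log2 fold change 0.52, SE 0.10, 95% interval 0.30 to 0.75, adjusted p = 0.0163 by edgeR). The call was lost without AEG-1 KO replicate 2 (adjusted p = 0.0625 by edgeR), at a log2 fold change of 0.52. Lpl, lipoprotein lipase, was the second most abundant member per kilobase at 172 ± 3.27 RPKM in WT. It was at 1815, 1768 and 1834 CPM in WT and at 1855, 1819 and 1775 CPM in AEG-1 KO, overlapping groups whose log2 fold change of 0.01 had a 95% interval of -0.08 to 0.09.

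The fatty acid binding proteins carry fatty acids through the cytosol. Fabp4 was at 22.4, 24.9 and 24.3 CPM in WT and at 21.9, 21.2 and 23.4 CPM in AEG-1 KO, with WT replicate 1 among the AEG-1 KO values (log2 fold change -0.11, SE 0.06, adjusted p = 0.381 by edgeR). Fabp5 was at 189, 215 and 205 CPM in WT and at 212, 224 and 233 CPM in AEG-1 KO, which overlap (log2 fold change 0.13, SE 0.06, adjusted p = 0.218 by edgeR). Per kilobase, Fabp5 stood at 56.9 ± 3.69 RPKM and Fabp4 at 5.32 ± 0.288 RPKM in WT. The pseudogenes Gm6166 and Gm14328 share stretches of up to 409 and 408 bases with Fabp5, at up to 99.4% and 98.7% identity. They held a further 44.0 and 35.3 CPM in WT. With these and the rarely read Gm13998 added, Fabp5 had a log2 fold change of 0.11 (adjusted p = 0.332 by edgeR).

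Summed over the 9 storage genes, the level was 3396, 3399 and 3369 CPM in WT against 3648, 3639 and 3631 CPM in AEG-1 KO. The groups did not overlap, and the AEG-1 KO mean was 107.4% of the WT mean. Plin2 made up most of the difference between the sums, at a mean of 1157 CPM in WT against 1360 CPM in AEG-1 KO. The other 8 genes together came to 2242, 2208 and 2242 CPM in WT against 2289, 2283 and 2266 CPM in AEG-1 KO, whose mean was 102.2% of the WT mean. In 3 of the 9 genes the groups did not overlap, Plin2, Angptl4 and Hilpda, all higher in AEG-1 KO, where the share over all tested genes was 13.9% in that direction.

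**Figure D3:**
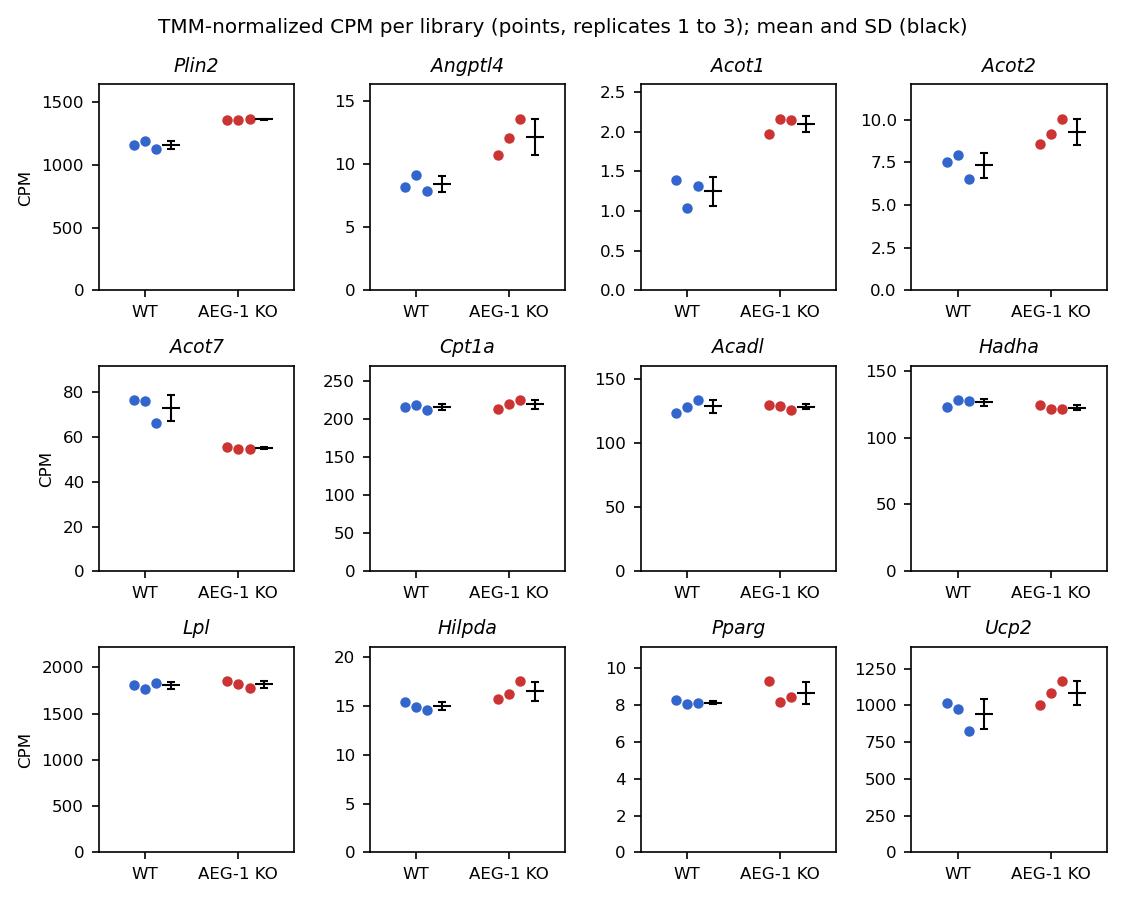
TMM-normalized CPM of 12 genes in each library (points; WT blue, AEG-1 KO red, replicates 1 to 3 from left to right), with mean and SD (black, n = 3); every axis starts at 0. WT and AEG-1 KO points are apart for Plin2, Angptl4, Acot1, Acot2, Acot7 and Hilpda and overlap for Cpt1a, Acadl, Hadha, Lpl, Pparg and Ucp2.

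Acyl-CoA thioesterases, which split acyl-CoA back into free fatty acid and coenzyme A, included 2 called genes that changed in opposite directions. Acot7 (ENSMUSG00000028937, GRCm38 chromosome 4, 152178134 to 152271855, plus strand), a cytosolic enzyme for long-chain acyl-CoA, was at 76.6, 75.9 and 66.5 CPM in WT and at 55.6, 54.8 and 54.7 CPM in AEG-1 KO. WT replicate 3 lay below the other two WT libraries, and still above all AEG-1 KO libraries. Acot7 fell by 0.41 on the log2 scale (SE 0.06, adjusted p = 0.00453 by edgeR), and 3.04% of all tested genes were called lower. It was the only member called under all 15 alternatives, with edgeR, DESeq2 or limma-voom adjusted p up to 0.0447.

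Acot1, the cytosolic thioesterase, and Acot2, its mitochondrial paralog, lie side by side on chromosome 12 (GRCm38, 84009490 to 84018371 and 83987861 to 83993873, both on the plus strand). Acot1 had 62, 61 and 57 reads in WT and 89, 92 and 96 reads in AEG-1 KO, or 1.39, 1.04 and 1.32 CPM against 1.98, 2.16 and 2.14 CPM. The groups did not overlap, with the fewest reads of any called member (log2 fold change 0.76, SE 0.15, 95% interval 0.42 to 1.10, adjusted p = 0.0181 by edgeR). Its call was lost without WT replicate 2, without AEG-1 KO replicate 2 and without AEG-1 KO replicate 3 (adjusted p of 0.0913, 0.0818 and 0.0645 by edgeR). Acot2 was at 7.54, 7.90 and 6.52 CPM in WT and at 8.57, 9.18 and 10.0 CPM in AEG-1 KO. All AEG-1 KO values were above the WT values (log2 fold change 0.33, SE 0.10, adjusted p = 0.0774 by edgeR), and Acot2 was called after the same correction (adjusted p = 0.0192 by edgeR).

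The coding sequences of Acot1 and Acot2 are nearly the same, so their reads can be hard to assign, and both values are uncertain. Aligned without gaps over 1236 coding bases, 95.3% of bases were identical, 58 differed, and the longest identical run was 273 bases. Exon bases outside the coding sequence were not part of this alignment, and merged exons span 3919 bases for Acot1 and 2196 for Acot2. The 100 coding bases with the most differences are printed, the stretch where the coding sequences are easiest to tell apart. The 14 differing bases are in capitals, from the coding transcripts of GENCODE M21 on GRCm38.

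Acot1, coding bases 787 to 886: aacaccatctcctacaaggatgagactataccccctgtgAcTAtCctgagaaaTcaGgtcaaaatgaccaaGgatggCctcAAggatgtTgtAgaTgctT
Acot2, coding bases 910 to 1009: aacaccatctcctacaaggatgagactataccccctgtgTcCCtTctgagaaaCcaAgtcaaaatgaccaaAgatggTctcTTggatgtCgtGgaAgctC

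With the reads of both genes added, the pair was at 8.93, 8.94 and 7.84 CPM in WT and at 10.5, 11.3 and 12.2 CPM in AEG-1 KO. The pair was called higher (log2 fold change 0.40, SE 0.09, adjusted p = 0.025 by edgeR). Per kilobase in WT, Acot7 stood at 34.4 RPKM, Acot2 at 3.33 RPKM and Acot1 at 0.319 RPKM. The 3 thioesterases summed to 81.5 ± 6.29 CPM in WT against 66.4 ± 0.434 CPM in AEG-1 KO. Acot7 made up most of both sums, at means of 73.0 and 55.0 CPM, while the values of Acot1 and Acot2 were higher in AEG-1 KO.

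**Figure D4:**
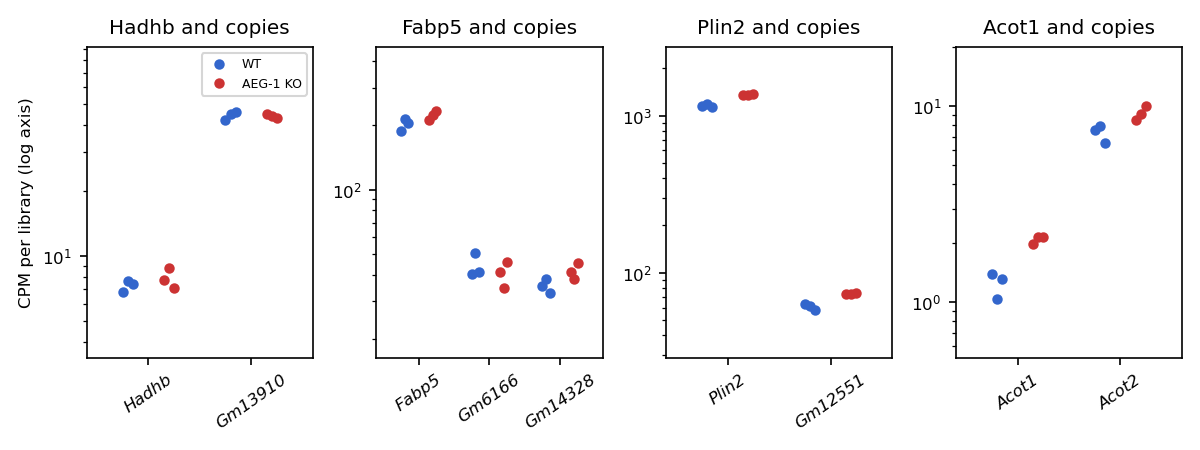
TMM-normalized CPM per library (points, log axis; WT blue, AEG-1 KO red) of Hadhb, Fabp5, Plin2 and Acot1 beside the genes that share near-identical stretches with them. Gm13910 lies at 42.2 to 45.9 CPM, above Hadhb at 6.78 to 8.78 CPM, while the copies of Fabp5 and Plin2 lie below their parent genes.

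The genes that set mitochondrial fuel use were not called. Ucp2, an inner membrane carrier abundant in macrophages, was at 1017, 977 and 826 CPM in WT and at 1000.1, 1085 and 1166 CPM in AEG-1 KO. WT replicate 3 was the lowest and AEG-1 KO replicate 3 the highest, and the groups overlapped (log2 fold change 0.20, SE 0.08, adjusted p = 0.182 by edgeR). After that correction Ucp2 was called higher (log2 fold change 0.20, adjusted p = 0.0348 by edgeR). Pdk4, which restrains pyruvate oxidation and is a known PPAR target, had 14, 11 and 10 reads in WT and 20, 7 and 12 reads in AEG-1 KO. At this depth a difference was not detectable (95% interval of the log2 fold change -0.59 to 1.18, adjusted p = 0.725 by edgeR).

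A further 111 genes of the same pathways, which are no members, were counted from a list. Of these 89 were tested, 5 were called higher and 3 lower, or 8.99%, where 6.35% of all tested genes were called. Their median log2 fold change was 0.04. Among 44 other oxidation genes tested, 1 was called higher and 1 lower in AEG-1 KO (4.55%). Acsl5, which joins fatty acids to coenzyme A, fell from 294 ± 5.90 to 246 ± 7.19 CPM, a log2 fold change of -0.26 (SE 0.04, adjusted p = 0.00644 by edgeR). Abcd2, a peroxisomal transporter of very-long-chain acyl-CoA, rose from 13.5 ± 1.06 to 17.2 ± 0.898 CPM (adjusted p = 0.0276 by edgeR). The Abcd2 call was lost without WT replicate 1 or 2 and without AEG-1 KO replicate 2 or 3 (edgeR adjusted p from 0.0544 to 0.136).

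Among 28 other storage genes tested, 3 were called higher and 1 lower in AEG-1 KO (14.3%, where 6.35% of all tested genes were called). The list had 15 positive and 13 negative log2 fold changes, with a median of 0.01. Nceh1, a neutral cholesteryl ester hydrolase, rose from 264 ± 4.90 to 339 ± 8.04 CPM, a log2 fold change of 0.36 (SE 0.04, adjusted p = 0.000997 by edgeR). Soat1, which esterifies cholesterol for storage, rose from 389 ± 6.87 to 458 ± 18.9 CPM, a log2 fold change of 0.23 (SE 0.04, adjusted p = 0.0129 by edgeR). Lipa, the lysosomal acid lipase, had a log2 fold change of 0.24, SE 0.04 (adjusted p = 0.00808 by edgeR). Vldlr, a lipoprotein receptor, fell from 11.6 ± 0.205 to 7.89 ± 0.368 CPM, a log2 fold change of -0.55 (SE 0.07, adjusted p = 0.002 by edgeR). Without AEG-1 KO replicate 2 the calls of Soat1 and Lipa were lost (adjusted p of 0.0988 and 0.0549 by edgeR), as was that of Soat1 without WT replicate 2 (adjusted p = 0.0629 by edgeR).

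Among 17 other PPAR regulators and fuel genes tested, 1 was called higher and 1 lower in AEG-1 KO (11.8%, where 6.35% of all tested genes were called). Prkaa2, a catalytic subunit of the energy sensor AMPK, fell from 6.63 ± 0.314 to 4.36 ± 0.476 CPM. Its log2 fold change was -0.61 (SE 0.10, adjusted p = 0.00827 by edgeR). Sirt1, an NAD-dependent deacetylase that acts on PPAR coactivators, rose from 16.1 ± 1.75 to 21.6 ± 2.43 CPM, a log2 fold change of 0.42 (SE 0.10, adjusted p = 0.0391 by edgeR). Its call was lost without any 1 of 5 libraries, all but WT replicate 3 (edgeR adjusted p from 0.0505 to 0.166). Called counts for the further genes were 5 without WT replicate 2 and 4 without AEG-1 KO replicate 2.

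Some other values are uncertain from how genes lie on the genome. Exons of Acaa1a, Acadvl, Eci2, Etfdh, Hadha, Lipe and Ucp2, and of Acsl5 and Sirt1, overlap a gene on the opposite strand. Of the 1164 exon bases of Etfb, 617 are shared with Gm45233 and 61 with Mir7051 on the same strand. Near-identical stretches in other genes are also held by Acaa1a, Acadm, Eci2, Etfa, Lpl, Pdk4, Plin3, Slc25a20, Abcd2, Soat1, Acsl5 and Sirt1. With reads of near-identical copies added to Acaa1a, Eci2 and Etfa, none of these was called (edgeR adjusted p from 0.418 to 0.985). No reads of a copy were added to Acadm, so its near-identical stretches were not checked in this way.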

How the data were processed

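RNA-seq of 6 libraries, 3 per genotype, was read from 1 table of raw counts per Ensembl gene, deposited by the authors with 1 column per library, per the file headers. Libraries were made with an Illumina TruSeq RNA kit from total RNA, per the labels' protocols. Builds mm10 and GRCm38 are named, with the tools featureCounts 1.4.6-p4, Subread, cutadapt 1.9, edgeR 3.18.1 and FastQC 0.11.2, per the submitters' processing notes. How multi-mapping reads and strand were handled, and which annotation was used, is not given in the sources used here.

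Of 46983 identifiers, 46488 matched a symbol in GENCODE M21 (GRCm38). After a low-count filter (filterByExpr, minimum 10) and TMM scaling, genes were tested in edgeR 4.0.16 (quasi-likelihood, legacy set to false, genotype only; R 4.3.3), with Benjamini-Hochberg adjustment over 16115 genes and a threshold of 0.05. Standard errors divide the size of the log2 fold change by the root of F, and intervals are 95%. RPKM is CPM over kilobases of merged exons. Chi-square statistics per degree of freedom of 5.21 to 17.8 between libraries of a genotype showed no duplicate library.

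Near-identical stretches (at least 95% over at least 100 bases) were sought with BLAST+ 2.17.0 between transcripts. The longest stretch and the highest identity of a gene pair were taken separately and need not come from the same alignment. Alternatives used DESeq2 1.42.0, limma 3.58.1 (voom) and mgcv 1.9.3 (length and GC trend), other scalings and filters, a replicate block and each library left out; the trend and the added copies were chosen after the data were seen.

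Members, gene lists and tests were chosen with earlier results of these data known. By rule, full values were given for called members, PPAR factors and the member of each role with the largest change, and up to 3 called genes per direction of each further list; other members' values were added afterwards. A planned comparison of protein sequences was not made, and coding sequences were compared instead.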

Additional observations from a re-analysis of the deposited data

How the results depend on the processing

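No called member changed direction. Of 522 values for the 35 tested members over 15 alternatives, 511 stayed on the same side of the threshold, 8 lost a call (Acot1, Plin2 and Angptl4) and 3 gained one (Acot2, Pnpla2 and Ucp2). No oxidation member was called under any alternative. After correction for length and GC content, chosen after the data were seen, 2264 genes and 7 members were called; the cause was not tested. Leaving out each library in turn gave 380 to 1092 genes, 1 to 4 members, 0 to 2 storage genes and 4 to 9 further pathway genes called, with fewer libraries in each fit. The median log2 fold change was -0.0036 to 0.03 over oxidation genes and 0.08 to 0.17 over storage genes. With the replicate number as a block, 227 genes, 1 member (Acot7), 0 storage genes and 2 further pathway genes (Nceh1 and Vldlr) were called. Under the block the calls of Plin2, Angptl4 and Acot1 were lost (adjusted p of 0.117, 0.0873 and 0.108 by edgeR). So were those of Acsl5, Prkaa2, Abcd2, Soat1, Lipa and Sirt1 (adjusted p from 0.0563 to 0.171 by edgeR). Deviations of same-numbered libraries from their group means had r of -0.274 to -0.173 and of differently numbered ones 0.0572 to 0.194, and no library correlated best with its own number. With 3 libraries per group the deviations from a group mean are tied to each other, so these values cannot settle whether the numbers mark pairs. Depth limits Pdk4, Acot1 and Ppara, which had at most 96 reads in any library.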
